A study of Mus musculus with 12 samples.

Results

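Respiratory complex I is described here through the mouse genes whose symbol starts with Nduf, as read by probe sets that the platform annotation pairs with 1 gene only. A gene was read by the brightest of its probe sets on average over the 12 arrays, which gave 44 Nduf genes of 18193 genes in all. The hearts came from mice with an apelin knockout and from wild-type mice, each either aortic banded or sham operated, and all 4 groups held 3 arrays that the labels call biological replicates. They were knockout banded, knockout sham, wild-type banded and wild-type sham hearts. Aortic banding narrows the aorta, so that the heart pumps against a raised pressure. Apln encodes apelin, a secreted peptide hormone of the cardiovascular system. The sources used here do not give how the knockout allele was made, the strain, the age of the mice, the time after surgery or the part of the heart taken. An array measured total RNA of a heart sample, labelled with biotin and hybridised to an Affymetrix mouse expression array, and values are linear intensities as deposited.

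Complex I is the entry point of the mitochondrial respiratory chain: it takes electrons from NADH, passes them through a flavin and a row of iron-sulfur clusters to ubiquinone, and pumps protons across the inner membrane. Its catalytic core is built from subunits of both nuclear and mitochondrial genes, accessory subunits surround that core, and assembly factors help to build it without staying in it. Heart muscle is rich in mitochondria, and complex I supplies much of the proton gradient that drives ATP synthesis in cardiomyocytes. The nuclear genes of the core described here are Ndufs1, Ndufs3, Ndufs7, Ndufs8, Ndufv1 and Ndufv2. The probe sets of Ndufs6 and Ndufa11 are paired with a second gene each, so these genes lie outside the rule. Among mitochondrial genes of the complex, ND5 alone was measured.

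The genotype labels were checked with Apln. Its intensity was 271, 123 and 160 in knockout banded hearts, 63.7, 111 and 85.4 in knockout sham hearts, 205, 223 and 255 in wild-type banded hearts, and 333, 323 and 212 in wild-type sham hearts. The array labelled knockout banded 1 therefore read inside the wild-type range, which goes against its label. Nduf calls and medians of the comparisons it enters are given with and without it. For the other lists compared below, this is done for banding in knockout. Their calls without it are also given for knockout against wild type in banded hearts and for the interaction. Calls of these lists averaged over genotypes are not given. Knockout banded 1 also read 1094 for Scgb1a1, a secretory gene of airway cells, and 410 for Scgb3a2. The other lung genes looked at stayed within the range of the other arrays. On knockout banded 1 they were Sftpa1 (30.4), Sftpb (54.3), Sftpc (49.2) and Sftpd (37.3). Adipoq, a fat-cell gene, read 392 on knockout banded 1 and 327 on wild-type banded 1. Cardiomyocyte identity was plain in every group: the summed intensity of 10 markers, among them Myh6, Tnnt2 and Ryr2, was 76001 to 78191 in knockout banded, 92466 to 102300 in knockout sham, 86485 to 107780 in wild-type banded and 76746 to 145382 in wild-type sham hearts. Sums of 7 atrial markers, such as Sln and Myl7, varied widely between arrays. They were 12857 to 17174 in knockout banded and 6426 to 28329 in knockout sham hearts. In wild-type hearts they were 6616 to 37006 (banded) and 4626 to 31399 (sham).

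Most Nduf genes were among the brightest genes of these hearts. Their median mean intensity was 4873, against 81.5 for all genes, and 33 of the 44 averaged at least 2000, against 3.07% of all genes. Ndufb9, an accessory subunit of the membrane arm, read highest with a mean of 9479. Next came Ndufa1, a small membrane-arm subunit (8212), and Ndufv3, an accessory subunit beside the flavin site (7189). Intensities of different probe sets also reflect probe affinity, so this order describes signals and not amounts of RNA. Within roles, the 6 core subunits had a median of 4931, with a range of 4076 to 6366. The 8 accessory subunits of the matrix arm had a median of 4954, the 19 of the membrane arm one of 5405, and Ndufab1, the acyl carrier protein present in both arms, read 5951. The 8 assembly factors were far dimmer, with a median of 473 and a range of 199 to 1231. Ndufa4, now known as a subunit of complex IV despite its name, read 6325, and its relative Ndufa4l2 read 196. Ndufb4 read 13.0 to 37.6 over the 12 arrays through its only single-gene probe set, below the intensity filter, so 43 Nduf genes were tested. Probe sets shared by Ndufb4 and its near-copies Ndufb4b and Ndufb4c read 4565 and 3263 but lie outside the rule.

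**Figure D1:**
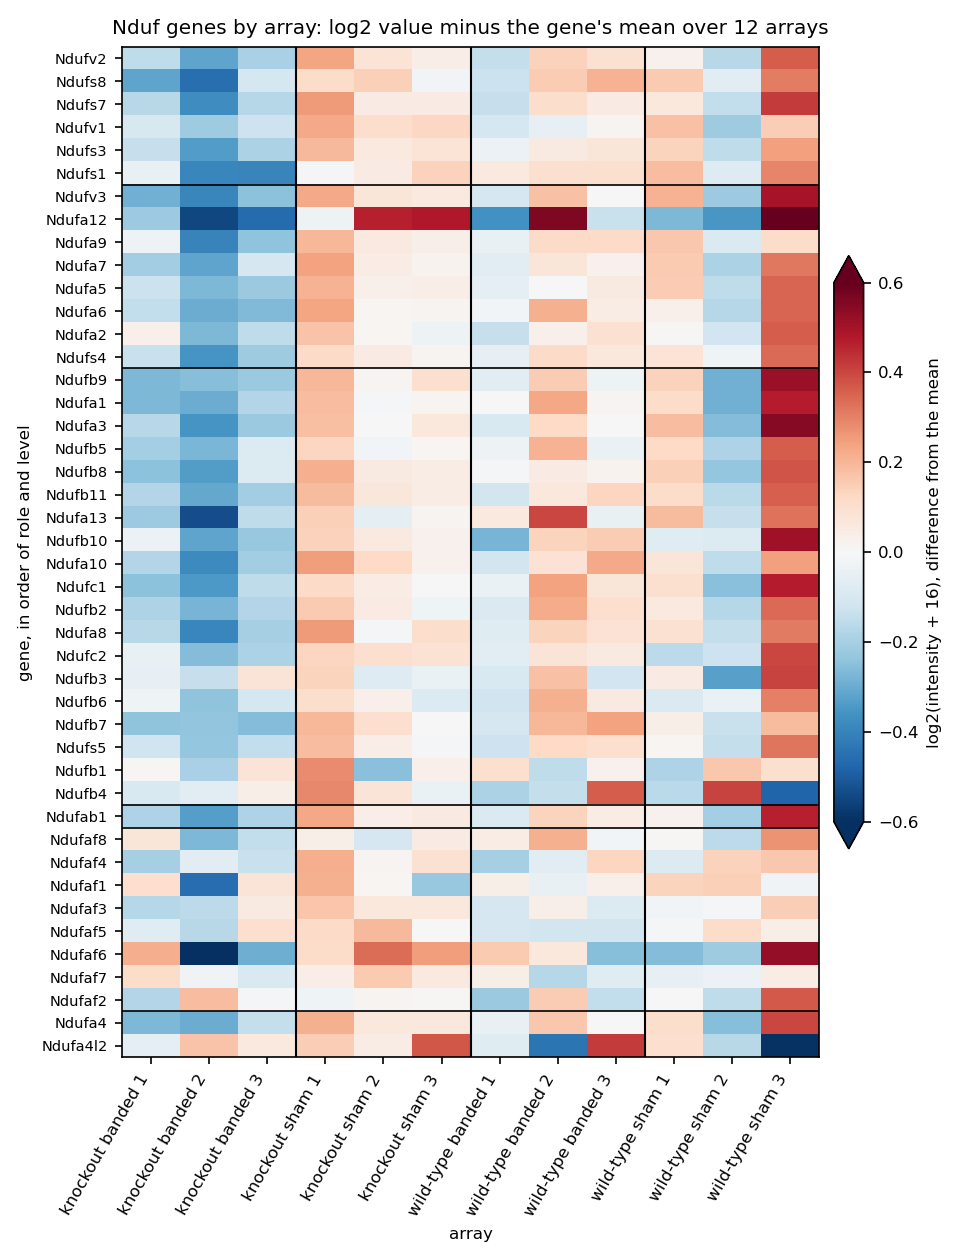
Each row is an Nduf gene and each column an array, and colour gives the log2(intensity + 16) of the array minus the gene's mean over the 12 arrays. The knockout banded columns are low for most rows, and the columns of wild-type sham 2 (low) and wild-type sham 3 (high) move nearly all rows together.

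Banding in knockout hearts came with lower readings of almost all Nduf genes, although no single gene passed the test. Of the 44 Nduf genes, 43 had a log2 difference below 0, with a median of -0.31, a change of -19.1%, while the median of all tested genes was -0.02 and 53.1% of them lay below 0. All 10916 tested genes were fitted together in limma, and 0 of 43 Nduf genes passed a threshold of 0.05 after Benjamini-Hochberg adjustment, against 3.81% of tested genes called in either direction and 1.76% called lower. The smallest adjusted p in limma was 0.109, for Ndufa10. An unadjusted p under 0.05 was reached by 21 of 43 Nduf genes (48.8%), all of them lower, against 21.1% of tested genes in either direction and 10.9% in the lower one. The 3 knockout banded arrays all read below the 3 knockout sham arrays for 32 of 44 Nduf genes, against 14.4% of tested genes. Part of the distance from that background goes with brightness, since among the 526 other tested genes that averaged at least 2000 this held for 45.1%, against 30 of 33 (90.9%) Nduf genes of that brightness.

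The 6 core subunits described here lay within a narrow band, from -0.37 to -0.30 on the log2 scale. Ndufs1 (Entrez gene 227197), the largest iron-sulfur subunit, read 3921, 3079 and 3065 in knockout banded hearts, against 4002, 4184 and 4440 in knockout sham hearts. The groups did not overlap, although knockout banded 1 lay close to the lowest sham array. Its log2 difference was -0.33 (SE 0.12, adjusted p in limma 0.143). Ndufs3 (Entrez gene 68349), a subunit of the hydrophilic core, read 4379, 3828 and 4229 in knockout banded hearts, against 5531, 5027 and 5103 in knockout sham hearts, again without overlap. Its difference was -0.33 (SE 0.11, adjusted p in limma 0.117). Ndufs7 (Entrez gene 75406) and Ndufs8 (225887) carry iron-sulfur clusters near the ubiquinone site. Ndufs7 read 4389, 3800 and 4374 in knockout banded hearts, against 5878, 5101 and 5086 in knockout sham hearts, a difference of -0.35 (SE 0.14). Ndufs8 read 4506, 4101 and 5220 in knockout banded hearts, against 6049, 6201 and 5554 in knockout sham hearts, a difference of -0.37 (SE 0.13). For both genes the highest banded array stayed below the lowest sham array. Ndufv1 (Entrez gene 17995) holds the flavin that accepts electrons from NADH. It read 4550, 4199 and 4464 in knockout banded hearts, against 5705, 5230 and 5297 in knockout sham hearts, a difference of -0.30 (SE 0.11). Ndufv2 (Entrez gene 72900), its iron-sulfur partner, read 5677, 5059 and 5521 in knockout banded hearts, against 7429, 6673 and 6481 in knockout sham hearts, a difference of -0.34 (SE 0.14). Neither overlapped between the groups, and the adjusted p-values of these 4 genes in limma were 0.137 to 0.181.

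Accessory subunits of the matrix arm had a median difference of -0.32, and all 8 were below 0. Ndufv3 read 5794, 5403 and 5975 in knockout banded hearts, against 8301, 7461 and 7387 in knockout sham hearts, without overlap. Its difference was -0.43 (SE 0.16, adjusted p in limma 0.140). Ndufa9, which sits at the junction with the membrane arm, read 5025, 3885 and 4331 in knockout banded hearts, against 5894, 5343 and 5257 in knockout sham hearts, a difference of -0.32 (SE 0.12). Its knockout banded 1 array was the nearest to the sham arrays. Ndufs4, an accessory subunit whose loss causes complex I deficiency in mice and humans, read 2336, 2001 and 2207 in knockout banded hearts, against 2779, 2653 and 2591 in knockout sham hearts, a difference of -0.29 (SE 0.11). Ndufa5, another accessory subunit of this arm, differed by -0.30. The lowest value among all Nduf genes was that of Ndufa12, at -0.71. Ndufa12 read 4393, 3494 and 3696 in knockout banded hearts, against 5003, 7064 and 7134 in knockout sham hearts, without overlap. Its knockout sham arrays were far apart from each other, the SE was 0.30 and the adjusted p in limma 0.196. The other Ndufa12 probe sets were less apart, with -0.50 and -0.24 for those averaging 4567 and 4257 and -0.12 for a dim one averaging 23.3.

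**Figure D2:**
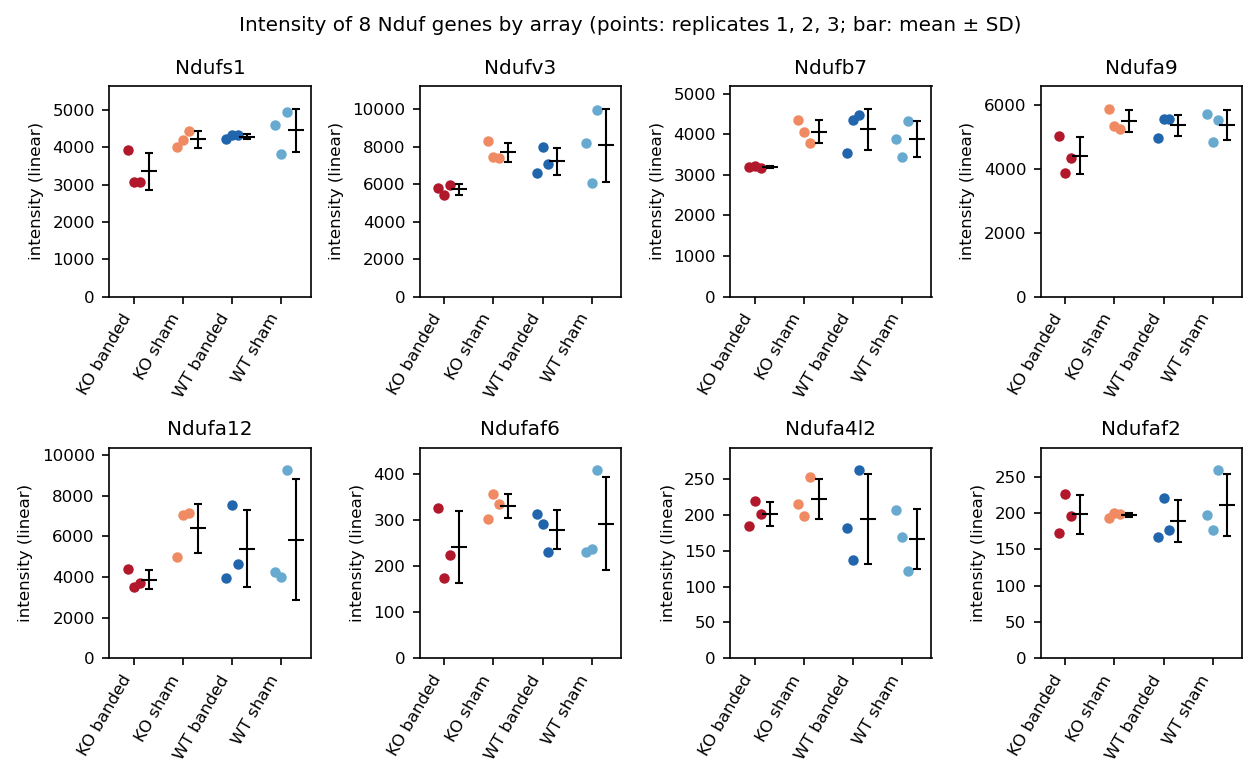
Intensity of 8 Nduf genes on each array, with arrays as points and bars for the group mean ± SD (n = 3), in the order knockout banded, knockout sham, wild-type banded, wild-type sham. Ndufs1, Ndufv3, Ndufb7, Ndufa9 and Ndufa12 read lower on every knockout banded array than on any knockout sham array, while Ndufaf6, Ndufa4l2 and Ndufaf2 overlap.

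All 19 accessory subunits of the membrane arm were below 0, with a median of -0.30. Ndufa10, a membrane-arm subunit on the matrix side, read 4984, 4312 and 4863 in knockout banded hearts, against 6714, 6123 and 5729 in knockout sham hearts. Its difference was -0.39 (SE 0.13, adjusted p in limma 0.109). Ndufb7 had the narrowest spread of all 44 genes in knockout banded hearts, with 3201, 3209 and 3159 in knockout banded hearts, against 4343, 4053 and 3787 in knockout sham hearts. Its difference was -0.34 (SE 0.12, adjusted p in limma 0.114). Ndufb7 and Ndufa8 both belong to the group of subunits with paired cysteines that face the intermembrane space. Ndufa8 read 4311, 3688 and 4221 in knockout banded hearts, against 5779, 4805 and 5217 in knockout sham hearts, a difference of -0.37 (SE 0.13). The brightest gene, Ndufb9, read 7772, 7842 and 8022 in knockout banded hearts, against 10748, 9457 and 10007 in knockout sham hearts, a difference of -0.35 (SE 0.16). None of these 4 genes overlapped between the groups. Ndufa1 lay at -0.31, and Ndufa13, a membrane-arm subunit also called GRIM-19, at -0.34. At the weak end of this arm were Ndufb1, at -0.06 and with a mean intensity near 200, and Ndufb3, at -0.04. Ndufb3 read 3715, 3496 and 4060 in knockout banded hearts, against 4230, 3646 and 3742 in knockout sham hearts, so the groups overlapped for this bright subunit.

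The assembly factors lay closer to 0, with a median of -0.13, 7 of 8 below 0 and values from -0.47 to 0.00. Ndufaf6, which acts in building the part of the complex next to the ubiquinone site, read 326, 173 and 224 in knockout banded hearts, against 302, 355 and 334 in knockout sham hearts. The groups overlapped through knockout banded 1, and the difference of -0.47 had an SE of 0.23 (adjusted p in limma 0.264). Ndufaf2, a factor of late assembly and the relative of Ndufa12, read 173, 227 and 197 in knockout banded hearts, against 194, 200 and 199 in knockout sham hearts, a difference of 0.00 (SE 0.15). Ndufaf3 and Ndufaf4, which work together in early assembly, lay at -0.19 and -0.24 without overlap between the groups. Ndufaf5 and Ndufaf7, both methyltransferase-like factors, lay at -0.15 and -0.09 and overlapped. The 12 genes whose arrays overlapped between banded and sham knockout hearts were 6 of the 8 assembly factors, Ndufa2, Ndufa4l2, Ndufb1, Ndufb3, Ndufb4 and Ndufb6.

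**Figure D3:**
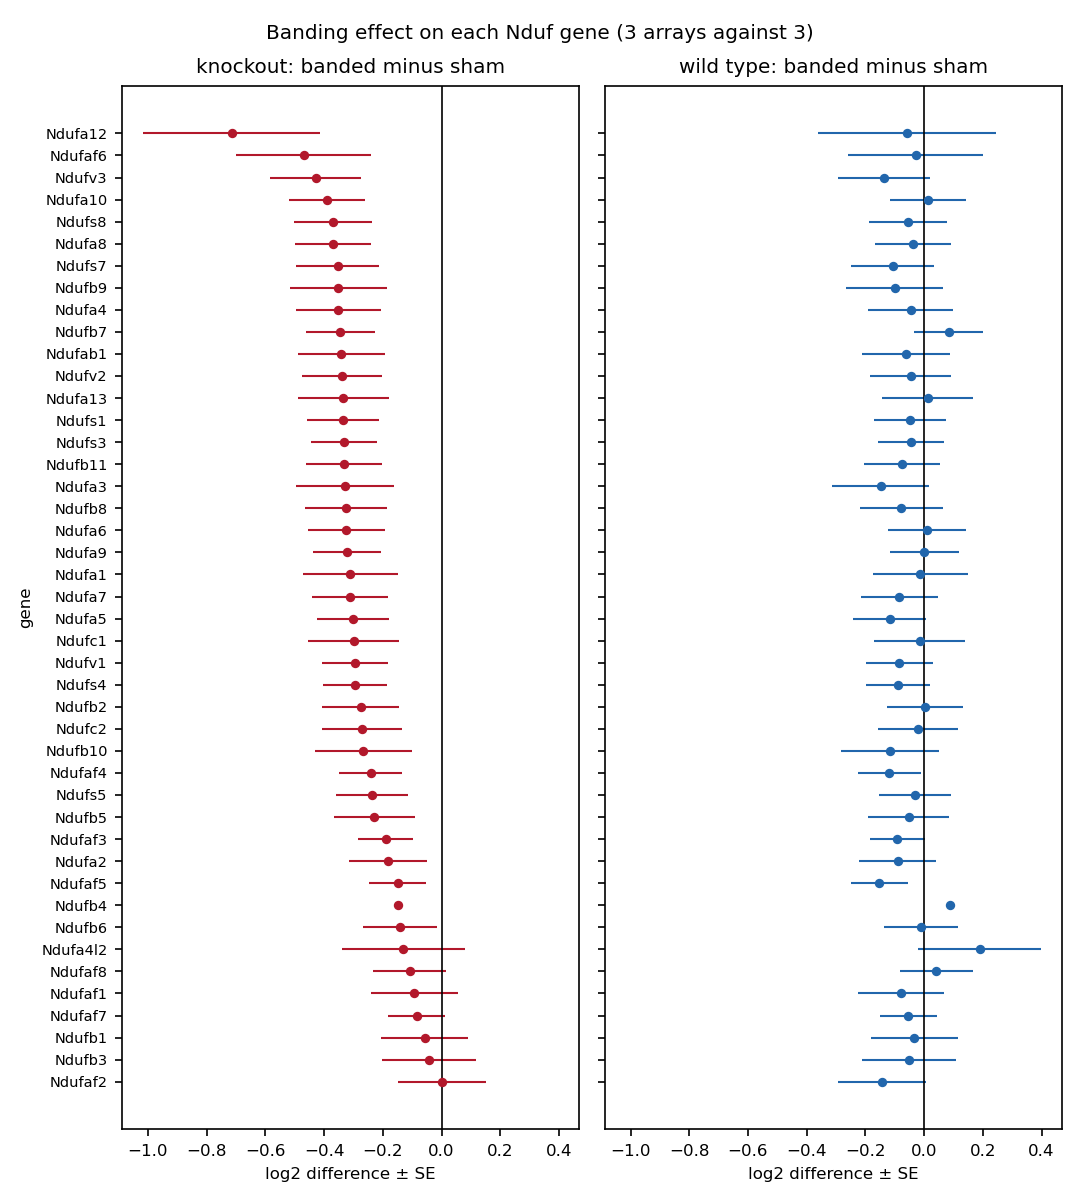
Log2 difference of banded against sham hearts for each Nduf gene, in knockout and in wild-type hearts. Genes are in the order of their knockout difference, and bars give the SE of the fit (Ndufb4 was not tested and has no bar). Most knockout values of the core and of both arms lie near -0.3, and wild-type values lie near 0. The assembly factors include the knockout value nearest to 0 (Ndufaf2) and one of the lowest (Ndufaf6).

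In wild-type hearts the same operation went with differences near 0. Of the 44 Nduf genes, 35 were below 0, with a median of -0.05, a lowest value of -0.15 and a highest of 0.19. In limma 0 of 43 passed, 0 reached an unadjusted p under 0.05, and the smallest adjusted p was 0.939. Here 0% of all tested genes passed and 4.89% had an unadjusted p under 0.05. Ndufb7 read 3532, 4344 and 4478 in wild-type banded hearts, against 3878, 3446 and 4324 in wild-type sham hearts, a difference of 0.08. Ndufa10 read 5219, 5973 and 6605 in wild-type banded hearts, against 5931, 5059 and 6686 in wild-type sham hearts, a difference of 0.01. The groups overlapped for both genes. Ndufaf5 alone had no overlap in the lower direction, with 270, 269 and 269 in wild-type banded hearts, against 290, 315 and 299 in wild-type sham hearts, where 6.17% of tested genes had none. Its difference was -0.15 (SE 0.10, adjusted p in limma 0.939). Ndufaf3 and Ndufaf4 lay at -0.09 and -0.12, Ndufaf2 at -0.14 and Ndufa5 at -0.12. The wild-type sham group was the widest, with a median coefficient of variation over the Nduf genes of 17.8%, against 7.65% in knockout banded, 6.79% in knockout sham and 8.65% in wild-type banded hearts. On wild-type sham 3 the Nduf genes averaged 0.22 (log2) above their group mean, and on wild-type sham 2 they averaged 0.20 below it (-0.20). Without wild-type sham 3 the wild-type banding median was 0.06 and 8 of 44 genes were below 0, and without wild-type sham 2 it was -0.16, so its sign rests on these arrays. Averaged over genotypes, banding gave a median of -0.17, 43 of 44 below 0, and 0 of 43 passing in limma, against 1.6% of tested genes. An unadjusted p under 0.05 was reached by 12 Nduf genes (27.9%), all lower, against 18.2% of tested genes in either direction and 10% in the lower one. Ndufv3 (-0.28) had the smallest adjusted p in limma, 0.202.

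Between banded hearts, knockout arrays read lower than wild-type arrays for most Nduf genes. The median difference was -0.24, 40 of 44 were below 0, and the 3 knockout arrays all read below the 3 wild-type arrays for 23 genes, against 8.95% of tested genes. Among genes that averaged at least 2000 this held for 23 of 33 Nduf genes (69.7%), against 31.4% of the 526 other tested genes. Part of the distance from the background thus goes with brightness here too. Again 0 of 43 passed in limma, as did 0% of tested genes, and 12 (27.9%) reached an unadjusted p under 0.05, all lower, against 14.6% of tested genes in either direction and 6.62% in the lower one. Ndufb7, with the arrays given above, was lower by a log2 of 0.36 (-0.36, SE 0.12, adjusted p in limma 0.211), and Ndufs1 had the same difference (-0.36, SE 0.12, adjusted p in limma 0.219). Ndufs1 read 4212, 4318 and 4323 in wild-type banded hearts, above every knockout banded array. Ndufa13 read 5362, 4310 and 5613 in knockout banded hearts, against 6498, 8228 and 6048 in wild-type banded hearts, a difference of -0.44 (SE 0.16), the lowest of this comparison. Ndufs8 lay at -0.37 and Ndufs4 at -0.28. By role the medians were -0.25 for the core, -0.28 for the matrix arm, -0.26 for the membrane arm and -0.07 for assembly factors.

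Sham hearts of the genotypes did not separate. The median of knockout against wild type was 0.01, 20 of 44 were below 0, no Nduf gene had groups without overlap, against 5.32% lower and 5.5% higher among tested genes, and 0 of 43 passed, as did 0% of tested genes, with 0 at an unadjusted p under 0.05, against 5.22%. The highest value was that of Ndufa4l2, a gene known to be induced by low oxygen. Ndufa4l2 read 215, 199 and 254 in knockout sham hearts, against 207, 170 and 122 in wild-type sham hearts, a difference of 0.41 (SE 0.21, adjusted p in limma 0.930). The interaction, which is the banding difference in knockout minus that in wild type, had a median of -0.25 with 41 of 44 below 0. In limma 0 of 43 passed the interaction, as did 0% of tested genes, and 2 (4.65%) had an unadjusted p under 0.05, both below 0, against 9.11% of tested genes in either direction and 4.04% below 0. These 2 were Ndufb7 (-0.43, SE 0.16, adjusted p 0.501) and Ndufa10 (-0.40, SE 0.18, adjusted p 0.542). A difference between genotypes in the response to banding was therefore not called for any Nduf gene. The comparisons share arrays, so their values are set side by side and are not independent of one another.

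The array labelled knockout banded 1 lessened these differences for some genes. Without it, 2 of 43 Nduf genes (4.65%) passed banding in knockout, Ndufs1 (-0.45, SE 0.12, adjusted p in limma 0.0294) and Ndufa9 (-0.42, SE 0.12, adjusted p in limma 0.0410), while 6.95% of tested genes were called lower. That share is below the background, the median difference was -0.33 and 43 of 44 genes were below 0. In banded hearts Ndufs1 then also passed between genotypes (-0.48, adjusted p in limma 0.0355), which is 2.33% of Nduf genes, against 2.89% of tested genes called lower, and the median there was -0.28. Averaged over genotypes the median was -0.19 with 0 Nduf genes passing, and for the interaction it was -0.26. The interaction still had 0 Nduf genes passing, while 0.87% of tested genes were called below 0. With array weights in limma, which let single arrays count for less, 14 of 43 Nduf genes (32.6%) passed banding in knockout, against 9.04% of tested genes called lower, and 1 passed knockout against wild type in banded hearts, against 2.35%. Without wild-type sham 2, 1 Nduf gene passed banding in knockout, against 1.51% of tested genes called lower. Without both knockout banded 1 and wild-type banded 3, 1 passed, against 6.47%.

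The Nduf genes varied together over single arrays, also within groups. The mean log2(intensity + 16) over the 44 genes was 11.22, 11.07 and 11.20 on knockout banded arrays, 11.52, 11.41 and 11.40 on knockout sham arrays, 11.28, 11.45 and 11.40 on wild-type banded arrays, and 11.40, 11.23 and 11.64 on wild-type sham arrays. Knockout banded arrays were the 3 lowest of 12, and wild-type sham 2 lay level with the highest of them. Knockout banded 2 was the lowest array for 32 of 44 genes and wild-type sham 3 the highest for 31. Over the 12 arrays, the correlation of each gene with the mean of the other Nduf genes had a median r of 0.904, and after group means were taken out the median was 0.891. In all, 22 of 44 genes reached 0.9. Ndufs7 (r = 0.993), Ndufv2 (0.991) and Ndufab1 (0.987) followed the others most closely. Ndufa4l2 (-0.37), Ndufb4 (-0.28) and Ndufaf7 (0.0903) followed them least, and the 8 assembly factors ranged up to 0.769, for Ndufaf8, with 0.745 for Ndufaf3, 0.314 for Ndufaf1 and 0.288 for Ndufaf5. These are descriptions over 12 arrays, whose genes share each array's scaling.

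Promoters of the 3 most closely covarying genes are printed because these genes moved together over the arrays. The windows are the 250 bases before the start, from RefSeq on GRCm38.p6, read 5′ to 3′ on the gene's strand. Capitals mark a motif match, which occurs once, in Ndufs7, as TATAAA with its first base at -99 from the start. Ndufs7 lies at chr10:80249199-80249448 on the plus strand, Ndufv2 at chr17:66101560-66101809 and Ndufab1 at chr7:122101849-122102098, both on the minus strand. The Ndufs7 window falls inside the annotated span of the gene, 80249105 to 80256794, so the start it precedes is not the outermost one.
Ndufs7: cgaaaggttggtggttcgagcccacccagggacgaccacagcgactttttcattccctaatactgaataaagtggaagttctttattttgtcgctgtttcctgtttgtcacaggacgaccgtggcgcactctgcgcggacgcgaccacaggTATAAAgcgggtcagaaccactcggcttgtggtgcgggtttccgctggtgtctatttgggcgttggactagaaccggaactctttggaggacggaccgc
Ndufv2: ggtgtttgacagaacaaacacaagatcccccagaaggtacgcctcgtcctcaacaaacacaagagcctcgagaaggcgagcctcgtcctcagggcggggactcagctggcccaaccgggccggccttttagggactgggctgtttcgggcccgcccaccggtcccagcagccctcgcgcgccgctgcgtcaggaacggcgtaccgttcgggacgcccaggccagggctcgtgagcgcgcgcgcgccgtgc
Ndufab1: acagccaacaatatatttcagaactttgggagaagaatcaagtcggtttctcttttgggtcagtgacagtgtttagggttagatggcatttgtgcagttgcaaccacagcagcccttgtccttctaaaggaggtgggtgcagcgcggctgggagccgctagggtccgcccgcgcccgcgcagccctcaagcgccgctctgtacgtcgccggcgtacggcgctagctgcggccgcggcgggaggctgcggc
RefSeq promoters, from 250 bases before to 50 after the start, were found for 39 of 44 Nduf genes, 41 in all. Each was searched on both strands for 5 motifs. CCGGAAG, the core bound by ETS factors such as GABP, was in 14.6% of Nduf promoters, against 16.7% of promoters of tested genes and 8.86% of all promoters. GCATGCG, a core of NRF1 sites, was in 9.76%, against 6.16% of those of tested genes and 3.58% of all. AAGGTCA, the half-site of estrogen-related receptors, was in 7.32%, against 3.17% and 4.72%. AAGATGG, a YY1 motif, was in 17.1%, against 7.02% and 6.34%, and TATAAA was in 12.2%, against 7.77% and 13.6%. Of the genes with a promoter, 19 held none of the 5. Each share rests on few promoters, and no test of it was made.

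The same arrays that read low for Nduf genes had a shorter upper tail of intensities. The 99th percentile of intensity was 3660, 3588 and 3817 on knockout banded arrays, 4233, 3912 and 3930 on knockout sham arrays, 3891, 4292 and 3980 on wild-type banded arrays, and 4008, 3484 and 4576 on wild-type sham arrays. Its log2 followed the Nduf mean with r = 0.909 over the 12 arrays (0.944 after group means were taken out), as a description, since the Nduf genes are themselves part of that tail. Tested genes other than Nduf that averaged at least 2000 had a median of -0.16 for banding in knockout, with 74.9% below 0, against -0.33 and 33 of 33 for Nduf genes of that brightness. For knockout against wild type in banded hearts these values were -0.12 and 70.5%, against -0.26 and 33 of 33. With quantile scaling, which gives every array the same distribution, the Nduf median for banding in knockout was -0.15 with 43 of 44 still below 0, and 1 gene passed, Ndufv3 (-0.23, SE 0.05, adjusted p in limma 0.0258), where 1.72% of tested genes were called lower. Averaged over genotypes, Ndufv3 also passed under quantile scaling, where 0.797% of tested genes were called lower. The other bright genes then lay at -0.04, and Nduf genes of that brightness at -0.16 with 32 of 33 below 0. For knockout against wild type in banded hearts the quantile-scaled Nduf median was -0.07. Whether the scaling or a change in RNA set the larger values was not tested.

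**Figure D4:**
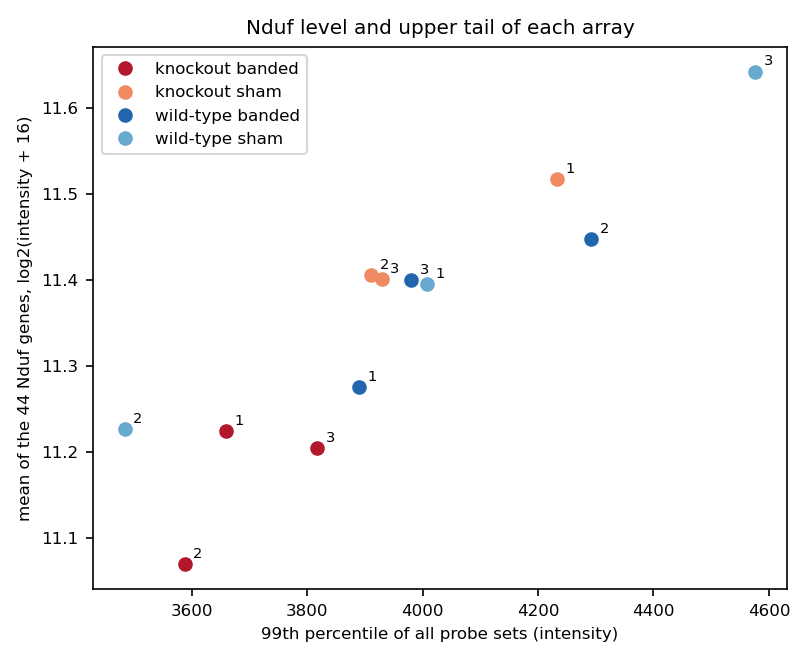
Mean log2(intensity + 16) of the 44 Nduf genes on each array against the 99th percentile of intensity over all probe sets of that array, with 1 point per array and colours for the groups. The knockout banded arrays lie at the low end with wild-type sham 2, and wild-type sham 3 lies at the high end.

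A measure of RNA quality set the knockout banded arrays apart in 1 of the control genes. For Actb, the log2 of the 3′ over the 5′ control signal was -0.20, -0.22 and -0.17 on knockout banded arrays and between -0.09 and 0.30 on the other 9, while that of Gapdh was -0.39 to -0.32 on all 12. Wild-type sham 2, which also read low for Nduf genes, had an Actb value of 0.18, unlike the knockout banded arrays. The part of RNA quality in the Nduf differences was not tested. For 22 Nduf genes there were 44 further single-gene probe sets, apart from the one that represents each gene. Of these, 41 were below 0 for banding in knockout, with a median of -0.33, and among those averaging at least 100 it was 33 of 34. They were hybridised with the same RNA and are no independent samples. Ndufs4 and Ndufa12 had the widest spread between probe sets, and for Ndufs4 the values were -0.29, -0.14 and -0.41, with 0.25 for a probe set averaging 13.9.

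Other parts of the respiratory chain lay near the same values in knockout hearts after banding. Medians were -0.26 for 8 genes of complex II, -0.30 for 13 of complex III, -0.28 for 19 of complex IV and -0.31 for 16 of complex V, beside -0.31 for the Nduf genes. The lists of complexes II to IV mix subunits with assembly factors, such as Sdhaf1, Bcs1l and Surf1, and that of complex V includes Atpif1. Of these lists, 7 of 8, 13 of 13, 16 of 19 and 15 of 16 genes were below 0. Sdha, the flavoprotein of complex II, fell to 5492, 4600 and 5206 in knockout banded hearts, against 7319, 6860 and 6927 in knockout sham hearts (-0.47, adjusted p in limma 0.0399). Uqcrc2, a core protein of complex III, fell to 4915, 4556 and 4892 in knockout banded hearts, against 6663, 6510 and 5752 in knockout sham hearts (-0.39, adjusted p in limma 0.0470). Neither overlapped between the groups, which held in the lower direction for 14.4% of tested genes. Among the 526 tested genes other than Nduf that averaged at least 2000, it held for 45.1%. The other 54 genes of complexes II to V did not pass, where 1.76% of tested genes were called lower. Without knockout banded 1, Sdha and Uqcrc2 passed again (-0.52 and -0.41), as did Cox7c of complex IV (-0.96, adjusted p in limma 0.0146) and Atp5e (-0.53, 0.0408) and Atp5g2 (-0.40, 0.0402) of complex V, all lower, where 6.95% of tested genes were called lower. In that fit Uqcrc2 (-0.50, adjusted p in limma 0.0275), Cox7c (-1.14, 0.0122) and Atp5e (-0.58, 0.0443) also passed between genotypes in banded hearts. All were lower in knockout hearts, where 2.89% of tested genes were called lower. Cox7c is read here by a dim probe set, at 24.2 to 90.1 over the 12 arrays. The list medians without that array were -0.29, -0.30, -0.29 and -0.34 for complexes II, III, IV and V. Both calls made with all arrays were fragile: leaving out any 1 of knockout banded 2 and 3 and the knockout sham arrays ended them, as did leaving out any 1 wild-type banded array, and over the 12 arrays left out in turn the adjusted p in limma was 0.0186 to 0.192 for Sdha and 0.0375 to 0.204 for Uqcrc2. Quantile scaling ended both as well, at -0.30 (adjusted p in limma 0.0527) for Sdha and -0.22 (0.236) for Uqcrc2. So did median scaling (0.122 and 0.142), no filter (0.0827 and 0.0986), a fit of the 2 groups alone (0.0567 and 0.0664) and the replicate block (0.0568 and 0.0812). Further settings ended the call of Uqcrc2 but not that of Sdha. For Uqcrc2 the adjusted p in limma was 0.0557 without wild-type sham 1, 0.0557 with eBayes without trend and 0.0816 with means of probe sets. In complex IV the smallest p-values were those of the heme-synthesis gene Cox10 (-0.37, adjusted p in limma 0.118) and of Cox7a1, the muscle isoform of a subunit (-0.49, 0.144). In complex V they were those of Atp5g2 (-0.34, 0.0896) and Atp5e (-0.41, 0.130), both subunits. The ND5 probe set read 8427, 8393 and 8582 in knockout banded hearts, against 11313, 9856 and 10752 in knockout sham hearts, a difference of -0.33 (adjusted p in limma 0.285). Assembly factors of complex I with other names had a median of -0.12 over 13 genes, 9 of them below 0 and 0 passing. Among them Ecsit lay at -0.38 (adjusted p in limma 0.0876; without knockout banded 1 it passed, at -0.47, 0.0235, and the list median was -0.20), and Timmdc1 at 0.64 (adjusted p in limma 0.153).

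Genes that direct mitochondrial biogenesis had a median of -0.18 over 15 genes, 10 of them below 0 and 0 passing. Ppara, a nuclear receptor for fatty acids, lay at -0.67 (adjusted p in limma 0.0767), and Esrra, the estrogen-related receptor alpha, at -0.30 (adjusted p in limma 0.0786). Ppargc1a, the coactivator PGC-1 alpha, read 819, 475 and 488 in knockout banded hearts, against 846, 820 and 840 in knockout sham hearts, so knockout banded 1 stood apart from the other 2. Without that array the median was -0.25 and 4 of these 15 genes passed, all lower, where 6.95% of tested genes were called lower: Ppargc1a (-0.78, adjusted p in limma 0.00177), Ppara (-0.84, 0.0169), Polrmt, the mitochondrial RNA polymerase (-0.44, 0.0152), and Esrra (-0.36, 0.0261). Ppargc1a then also passed the interaction (-0.75, adjusted p in limma 0.0402), where 0.87% of tested genes were called below 0. Between genotypes in banded hearts, Ppargc1a (-0.88, adjusted p in limma 0.00215) and Ppara (-0.94, 0.0175) passed without that array. In that comparison 2.89% of tested genes were called lower. A list of 22 other mitochondrial genes, among them matrix enzymes and outer-membrane pores, had a median of -0.30, 20 below 0 and 0 passing, with 5 of 22 lower without that array, where the median was -0.32, again beside 6.95% of tested genes. Suclg1, of the citric acid cycle (-0.36, adjusted p in limma 0.0900), and Vdac3, a pore of the outer membrane (-0.29, 0.0913), had the smallest p-values there with all arrays.

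Markers of cardiomyocytes moved with the Nduf genes. All 10 lay below 0 for banding in knockout, with a median of -0.31. Among them 1 passed, Ryr2, the calcium release channel (-0.53, adjusted p in limma 0.0320), where 1.76% of tested genes were called lower. The summed intensities of these 10 markers, given above, did not overlap between knockout banded and knockout sham hearts. With quantile scaling the median of these markers was -0.04. Without knockout banded 1 it was -0.31 with Ryr2 still passing (-0.58, adjusted p in limma 0.0147), where 6.95% of tested genes were called lower. Of 7 fibroblast markers, Postn (2.63, adjusted p in limma 0.0241) and Col1a1 (1.18, adjusted p 0.0287) rose and 5 did not pass. Among all 10916 tested genes, 224 were called higher. The calls of Ryr2, Postn and Col1a1 were each lost when knockout banded 2 or 3 or any 1 knockout sham array was left out, with adjusted p-values of at most 0.150, 0.118 and 0.105. A fit of the 2 groups alone ended all 3 (0.0540, 0.0811 and 0.0758), the replicate block ended those of Ryr2 (0.0585) and Col1a1 (0.0505), and median scaling (0.0625) and no filter (0.0624) ended that of Ryr2. Postn read 639, 4719 and 3978 in knockout banded hearts, against 356, 354 and 365 in knockout sham hearts, so knockout banded 1 stood apart. Without that array Postn differed by 3.54 (adjusted p in limma 5.77e-06) and Col1a1 by 1.47 (0.00123), and Postn also passed knockout against wild type in banded hearts (2.77, 4.80e-05) and the interaction (2.98, 0.000547). The fibroblast median was 0.18 with all arrays and 0.38 without that one, and the summed level ranged from 7219 to 14092 in knockout banded and from 7098 to 8753 in knockout sham hearts. Endothelial and macrophage markers had medians of 0.18 and 0.20 with 0 passing. Without knockout banded 1 these were 0.19 and 0.36, and Pecam1, an endothelial adhesion gene, passed (0.38, adjusted p in limma 0.0375). In RNA from whole tissue, fewer cardiomyocytes in the sample and less mitochondrial RNA per cardiomyocyte cannot be told apart. The part of cell composition in the Nduf differences was not tested.

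**Figure D5:**
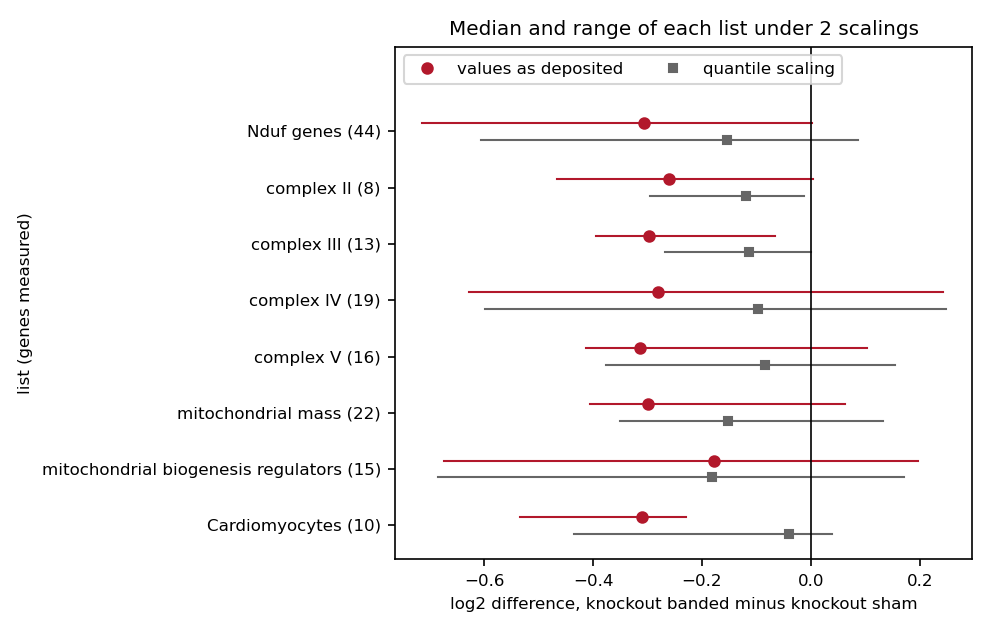
Median (marker) and range (line) of the log2 difference of knockout banded against knockout sham hearts for the Nduf genes and related lists, under the deposited scaling and under quantile scaling. Under the deposited scaling the Nduf genes, complexes II to V, the other mitochondrial genes and the cardiomyocyte markers share medians near -0.3. Under quantile scaling each of these medians lies closer to 0, at -0.15 for the Nduf genes and -0.04 for the cardiomyocyte markers. The median of the mitochondrial biogenesis regulators does not move closer to 0 and is -0.18 under both scalings.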

How the data were processed

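Hearts of 4 groups with 3 arrays each were compared. The deposited values are linear intensities per probe set. Which software made them and how the authors scaled them is not stated in the labels. After 2% of values were trimmed from both ends, every array averaged 150, and no further scaling was done. Of 45101 probe sets, 64 controls were left out, and 34945 were paired with 1 gene.

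Intensities were taken as log2(intensity + 16), with 1 probe set per gene, and the upper 60% of genes by mean, 10916 of 18193, were tested. limma 3.58.1 under R 4.3.3 estimated the 4 group means from the 12 arrays together (8 residual degrees of freedom), and eBayes used a variance trend. Tests were two-sided over 6 contrasts, with Benjamini-Hochberg adjustment over all tested genes and a threshold of 0.05. The procedure was tested on simulated data in which genes varied independently and changes were larger than the Nduf differences. Shifts shared by the genes of an array, as seen here, were not simulated. Arrays have no read depth, so their number limits the precision.

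Members, roles, lists, motifs and tests were chosen with earlier results of these data known. Genes were named by a rule: the core subunits, the 5 smallest p-values per contrast, the 3 extremes of level, of difference and of likeness, the 2 widest spreads between probe sets, and in other lists those passing or the 2 smallest p-values, given here for banding in knockout and for the mitochondrial, cardiomyocyte and fibroblast lists. Ppargc1a, genes of lists that passed only without knockout banded 1, and genes of airway, lung and fat cells were named after their values were seen. Other settings tried were the filter, pseudocount, quantile and median scaling, eBayes without trend, array weights, means of probe sets, fits of the groups compared alone, the replicate block, and leaving out arrays.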

Additional observations from a re-analysis of the deposited data

How the results depend on the processing

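No Nduf gene passed in any of the 6 contrasts as fitted, and a call appeared under few settings. For banding in knockout, 14 Nduf genes passed with array weights (32.6%, against 9.04% of tested genes called lower), 1 with quantile scaling (Ndufv3), and 1 without both knockout banded 1 and wild-type banded 3 (Ndufs1, -0.45, adjusted p in limma 0.0431). Leaving out 1 array at a time gave 0 to 2 passing, with Ndufv3 (-0.43, adjusted p in limma 0.0475) called without wild-type sham 2. For banding averaged over genotypes 1 passed with quantile scaling (Ndufv3, -0.16, adjusted p in limma 0.0368) and 0 when any array was left out. For knockout against wild type in banded hearts 1 passed with array weights (Ndufs1, -0.43, adjusted p in limma 0.0310), and 0 to 1 when arrays were left out in turn. No other setting made a call.

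Quantile scaling moved the medians to -0.15 for banding in knockout, -0.0743 for knockout against wild type in banded hearts and -0.11 for the interaction. With 1 array left out at a time they ranged from -0.34 to -0.26 for banding in knockout, from -0.16 to 0.06 for banding in wild type, from -0.24 to -0.12 averaged over genotypes, from -0.30 to -0.19 for knockout against wild type in banded hearts, from -0.13 to 0.13 in sham hearts and from -0.37 to -0.11 for the interaction. The lowest sham value and the interaction of -0.11 came without wild-type sham 2, and the cause was not tested.

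With the replicate number as a block, 0 Nduf genes passed in any contrast, and the median for banding in knockout stayed at -0.31, with a smallest adjusted p in limma of 0.132. The block ended the calls of Sdha, Uqcrc2, Ryr2 and Col1a1 for banding in knockout, with adjusted p-values of 0.0505 to 0.0812, and kept that of Postn (0.0469). The numbers share only a label: correlations of same-numbered arrays were -0.12 to -0.02 for banding in knockout and -0.16 to 0.14 in wild type. Over all tested genes, the 416 calls for banding in knockout were 9 to 1441 when 1 array was left out, 237 with the block, 74 in a fit of the 2 groups alone, 212 without the filter and 1870 with array weights. Among the 43 tested Nduf genes the SE of a banding difference in knockout was 0.09 to 0.30, which limits what 3 arrays a group can separate.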
